A study of Homo sapiens with 6 samples.

Results

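The genes described here encode the DEAD-box and DEAH-box RNA helicases. Members were the rows of the gene table whose symbol starts with DDX or DHX and a digit, without DDX58, DDX60, DDX19A and DDX19B. They came to 46 of the 11658 genes listed, with 125 of the 30432 listed transcripts. The cells were MKN45, a human gastric cancer line in established use, grown in DMEM with fetal bovine serum. All 6 libraries came from cells transfected with a short hairpin RNA (shRNA), an RNA that the cell processes into a small interfering RNA against a matching transcript. In 3 libraries the shRNA was directed against tcons_00001221 (target libraries), and in the other 3 it was the control hairpin shRNA-NC (control libraries). The comparison of target with control libraries asks which helicase genes changed in level with the hairpin used. The labels name 1 hairpin per group and do not say whether libraries came from separate cultures, so each p-value reflects only the spread among the 6 libraries, part of which may be technical.

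RNA helicases of these families use ATP to open short RNA duplexes or to strip proteins from RNA, and are named after the amino acids of a conserved motif in the ATPase core. DEAD-box members separate strands locally without moving along the RNA, whereas DEAH-box members move along a strand and pull it free. They act at nearly every step in the life of an RNA: spliceosome rearrangement, export, ribosome assembly, translation initiation, decay and the sensing of foreign RNA. Many DEAH-box enzymes are switched on by partner proteins that carry a glycine-rich G-patch.

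Levels are given in FPKM (fragments divided by transcript length in kilobases and by the total mapped), as the authors deposited them. FPKM divides by length, so levels can be set side by side between genes, within the limits given with the order of levels below. Changes are differences of mean log2(FPKM + 1), target minus control. They were tested with limma-trend, with Benjamini-Hochberg adjustment over all 10675 genes that reached 1 FPKM in at least 3 libraries. A gene counted as called at an adjusted p below 0.05. Of the 46 helicase genes, 45 entered the test, and DHX58 did not reach the minimum. Changes of genes near 1 FPKM are understated on this scale.

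The sum of gene FPKM lay between 186226 and 192101 in the 6 libraries, and the helicase genes together took 0.311% to 0.332% of it. The number of reads is unknown. The targeted transcript was not among the features analysed here, so the knockdown itself could not be checked. A general list of 23 markers of gastric epithelial cell lines, not drawn up for MKN45, was looked up. Of these, 11 were among the genes analysed here, 7 of them at a mean of at least 10 FPKM, with KRT7, MUC13 and MET the highest. CDH1, KRT19, KRT20, CLDN3, ESRP1, GRHL2, CEACAM5, CEACAM6, LGALS4, TFF3, VIL1 and CDH17 were not among the genes analysed here. EPCAM had a control mean of 7.26 FPKM. The summed epithelial markers lay at 515 to 536 FPKM in control libraries and 494 to 502 FPKM in target libraries. Of 14 mesenchymal markers, 9 were analysed. Their sum lay at 525 to 546 FPKM in control and 468 to 482 FPKM in target libraries. The highest of them were COL5A1, at means of 260 and 221 FPKM, and VIM (vimentin), at 203 and 187 FPKM. Both were above KRT7, the highest epithelial marker, at 175 and 163 FPKM. These lists therefore do not by themselves bear out an epithelial line. No marker of these lists was called. In such bulk samples, fewer cells of a type and less RNA per cell cannot be told apart, and the part of these marker sums in the changes below was not tested.

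Helicase genes spanned a wide range of levels in MKN45. DDX3X, which helps ribosomes start on messages with structured leaders, had the highest mean over the 6 libraries at 55.4 FPKM. It was followed by DDX17, a splicing and transcription cofactor, at 50.2 FPKM, DHX9, which unwinds long duplexes, at 35.2 FPKM and DDX41, a spliceosome-associated helicase, at 33.5 FPKM. At the low end, DDX51 (2.44 FPKM), DDX60L (1.90 FPKM), DHX35 (1.27 FPKM), DDX10 (1.199 FPKM) and DHX58 (0.687 FPKM) came last. The median helicase gene that was tested had a mean of 9.85 FPKM, against 6.17 FPKM for the median of all genes tested. Neighbours in this order often could not be separated by their spread. DHX9 and DDX41 overlapped in both groups, as did DDX50, DDX21 and DDX1 in the control libraries. The order also depended on the measure. Summed over listed transcripts, control means were 9.95 FPKM for DDX41, 44.4 FPKM for DHX9, 62.6 FPKM for DDX39B and 80.2 FPKM for DDX5. Their control means as genes were 33.8, 34.3, 24.1 and 24.2 FPKM.

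**Figure D1:**
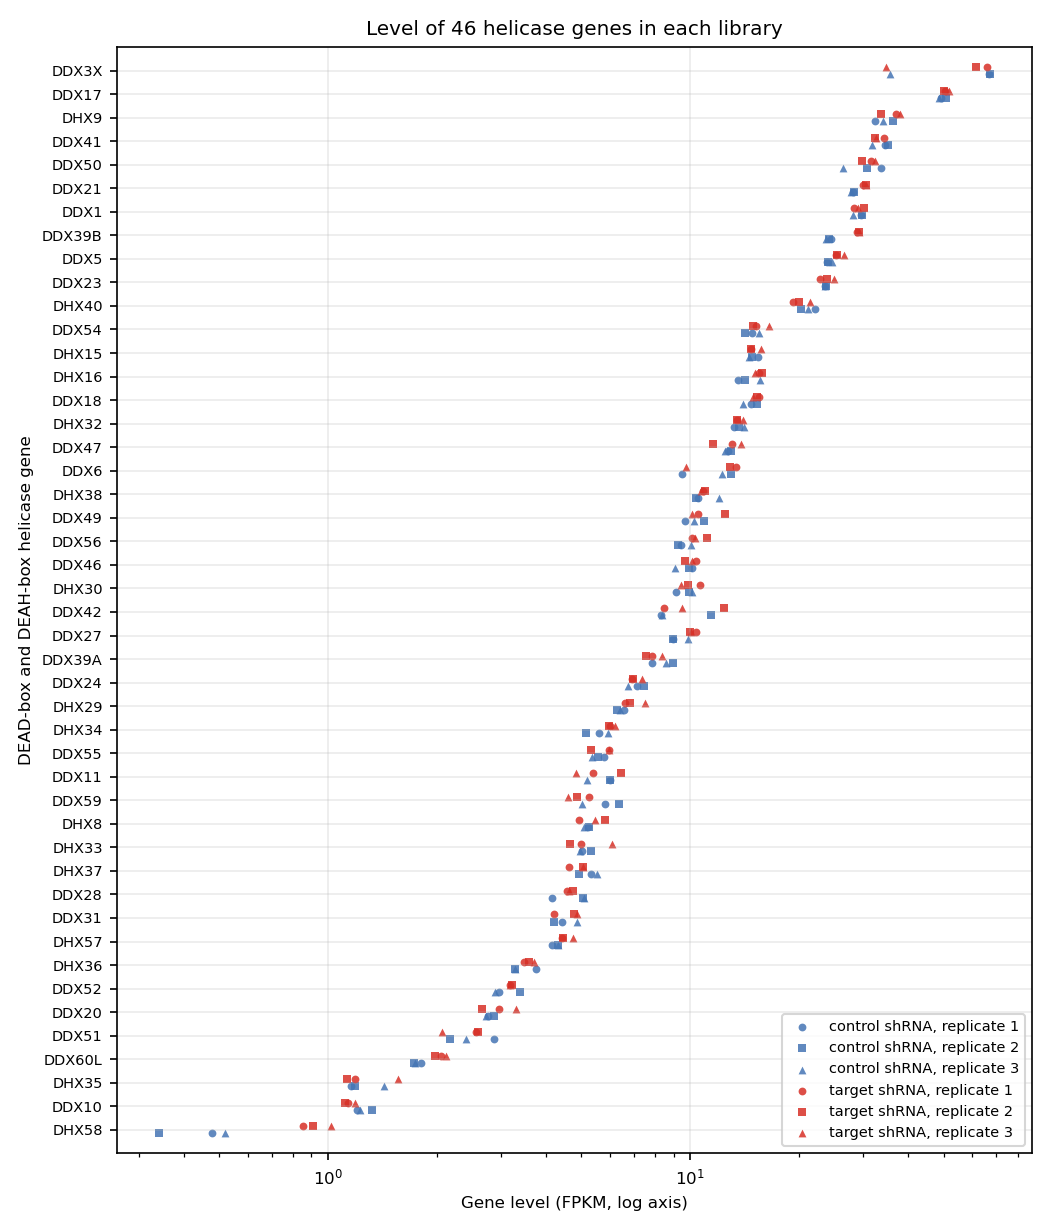
FPKM of the 46 helicase genes on a log axis, one row per gene in order of mean level, with circles, squares and triangles for replicates 1, 2 and 3 in the control (blue) and target (red) libraries. Most rows are tight clusters in which both groups overlap, while DDX3X shows both replicate 3 libraries near 35 FPKM and DHX58 shows the target libraries apart from the controls.

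Almost all helicase genes kept nearly the same level with either hairpin. DDX39B was higher in the target libraries, and it was the only member called: 1 of 45 higher and 0 lower, where 0.749% of all genes tested were called in either direction, 0.534% as higher and 0.215% as lower. At an unadjusted p below 0.05 there were 3 members, DDX39B, DDX21 and DDX60L, where 16.1% of all genes tested reached that level. Groups did not overlap for 10 members: 9 higher in the target libraries (20.0%) and 1 lower (2.22%), beside 16.6% higher and 7.18% lower among all genes tested. The lowest adjusted p among the uncalled members was 0.235 (limma).

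The changes were small as well as mostly uncalled. They ran from -0.18 for DDX59 to 0.26 for DDX39B, with a median of 0.04 against 0.03 for all genes tested. The median size of the change, whatever its sign, was 0.0492 for helicase genes and 0.0838 for all genes tested. Of 45 members, 33 had a positive and 12 a negative change, where 61.2% of all genes tested were positive and 73.3% of the members. After quantile normalization 25 members were positive (55.6%, against 50.2% of all genes tested), and after rescaling the libraries to the same median 25 (55.6%, against 51.4%), so the count of positive signs depended on the scaling. The 95% interval of the change lay within 1.25-fold either way (0.32 on the log2 scale) for 40 of 45 members (88.9%), against 63.2% of all genes tested, and within 1.5-fold (0.58) for 44 (97.8%), against 89.4%. Helicase genes were also more abundant and varied less within a group: their median coefficient of variation was 5.28% in control and 4.34% in target libraries, against 6.96% and 6.24% for all genes tested. The 5 members whose interval reached past 1.25-fold were DDX39B, DDX59, DDX3X, DDX6 and DDX42.

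**Figure D2:**
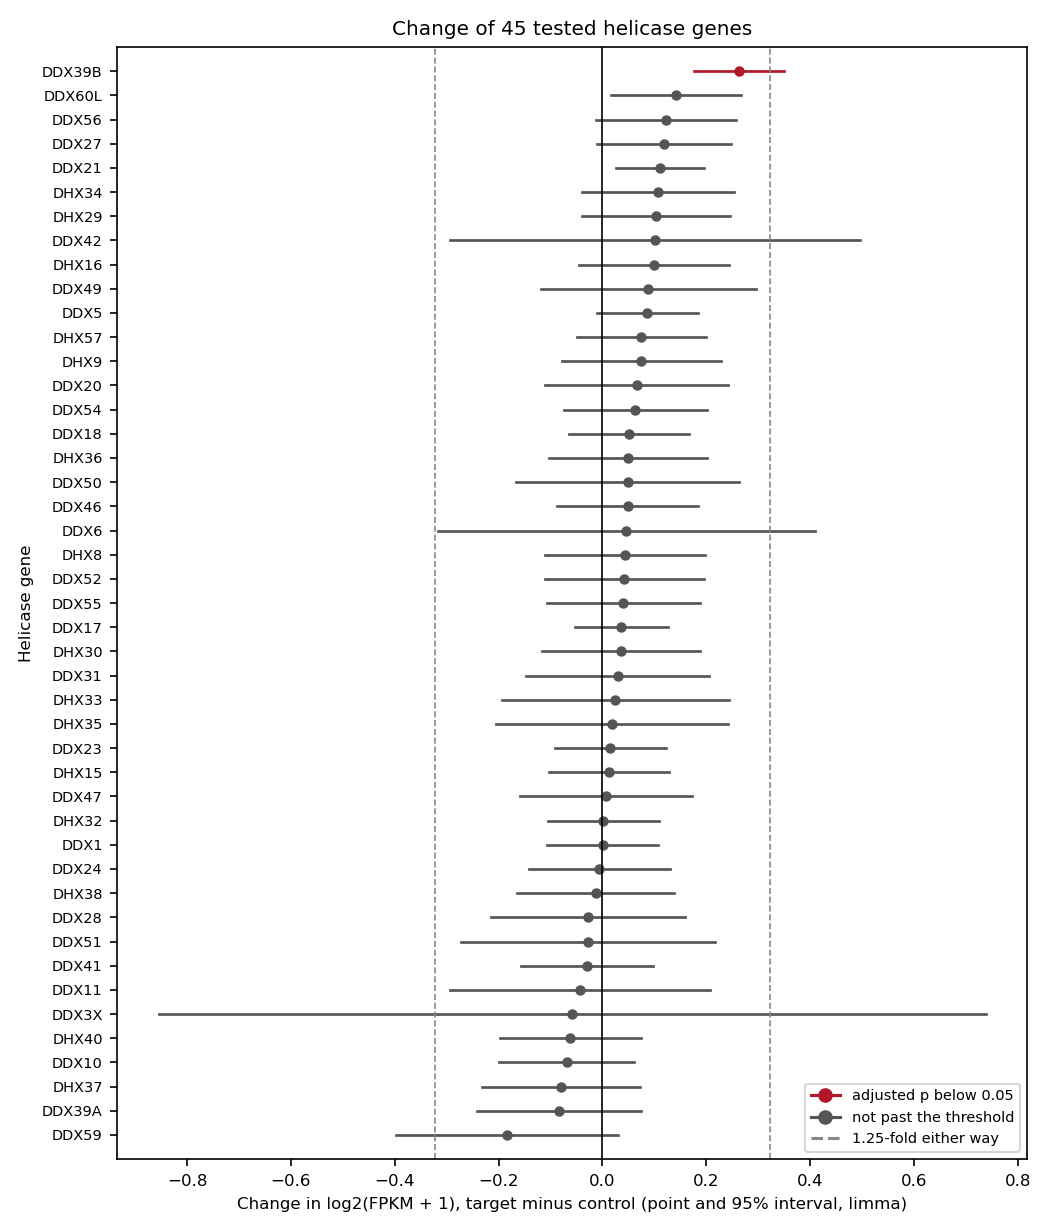
Change in log2(FPKM + 1), target minus control, for each of the 45 tested helicase genes (point) with its 95% interval from limma (line), n = 3 libraries a group. DDX39B, at 0.26, is the only one past the threshold, and the widest interval, -0.85 to 0.74, belongs to DDX3X.

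The 15 genes placed with nuclear splicing include the cofactors DDX5 and DDX17, the export helicases DDX39A and DDX39B, and the DEAH-box enzymes that drive the spliceosome. Of these, 1 rose and 0 fell past the threshold. There were 11 positive and 4 negative changes, where 61.2% of all genes tested were positive, and the median change was 0.04. DDX39B lies in the major histocompatibility complex region of chromosome 6 (chr6:31497996-31510225, minus strand, GRCh37). It encodes a helicase that loads export factors onto spliced messages as part of the TREX complex and also takes part in early spliceosome assembly.

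DDX39B stood at 24.4, 24.1 and 23.7 FPKM in the control libraries and at 28.9, 29.3 and 29.1 FPKM in the target libraries. Every target library was higher than every control library, and the gap between the groups was several times the spread within either. The means were 24.1 ± 0.350 and 29.1 ± 0.165 FPKM (SD, n = 3 each), a ratio of 1.21. The log2 change was 0.26 with a standard error of 0.0359, a 95% interval of 0.18 to 0.35 and an adjusted p of 0.0415 from limma. That call lay close to the threshold. The adjusted p from limma was 0.0561 after quantile normalization, 0.0596 after rescaling to the same median, 0.0738 without the mean-variance trend and 0.216 in a fit blocked by replicate number. Values of 0.105 to 0.169 were obtained when any one of the 6 libraries, control or target, was left out. The change stayed positive, at 0.23 to 0.36, in each of these and the other settings tried.

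DDX39A, the close paralog of DDX39B with a role in export of its own set of messages, lies on chromosome 19 (chr19:14519631-14530195, minus strand, GRCh37). Its levels were 7.83, 8.96 and 8.54 FPKM in control and 7.85, 7.53 and 8.35 FPKM in target libraries, and the groups overlapped. The means were 8.44 ± 0.570 and 7.91 ± 0.412 FPKM (SD, n = 3), with a change of -0.08 and an adjusted p of 0.578 (limma). The ratio of DDX39B to DDX39A was 2.86 ± 0.228 in control and 3.69 ± 0.197 in target libraries, a difference of 0.37 in log2 ratio. An exact two-sided permutation test gave p = 0.1, the smallest that 3 libraries against 3 allow. A ratio of this kind does not show which of the paralogs changed.

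DDX5 and DDX17 are paralogs that assist splicing, transcription and microRNA processing. DDX5 (chr17:62495734-62504317, minus strand, GRCh37) was at 23.9, 24.0 and 24.6 FPKM in control and 25.2, 25.5 and 26.5 FPKM in target libraries. The groups did not overlap, but the change of 0.09 was not called (unadjusted p 0.0716, adjusted p 0.355, limma). DDX5 overlaps CEP95 on the opposite strand, and the strandedness of the libraries is not given in the sources used here, so reads of the pair may not be separable. DDX17, at 49.2, 50.8 and 48.7 FPKM in control and 50.5, 50.2 and 51.9 FPKM in target libraries, overlapped between groups (adjusted p 0.669, limma). The ratio of DDX17 to DDX5 was 2.05 ± 0.0683 and 1.98 ± 0.0251 (SD, n = 3; exact permutation p = 0.200).

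DDX59, mutated in an oral-facial-digital syndrome, had the most negative change of all members. Its levels were 5.80, 6.37 and 5.03 FPKM in control and 5.26, 4.87 and 4.601 FPKM in target libraries, with the lowest control library below the highest target library. The change of -0.18 had a 95% interval of -0.40 to 0.03 and an adjusted p of 0.375 (limma). DDX41, in which inherited mutations predispose to myeloid leukaemia, was at 34.5, 35.2 and 31.7 FPKM in control and 34.3, 32.4 and 32.6 FPKM in target libraries, an overlap with a change of -0.03 (adjusted p 0.822, limma).

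The DEAH-box spliceosome enzymes stayed within narrow limits. DHX8, which releases the finished message, had means of 5.19 and 5.40 FPKM in control and target libraries. DHX15, which takes apart the spent spliceosome, had 14.9 and 15.04 FPKM, and DHX38, which acts at the second catalytic step, had 10.96 and 10.8 FPKM. DHX16, which acts before the first catalytic step, was at 13.5, 14.2 and 15.6 FPKM in control and 15.5, 15.8 and 15.1 FPKM in target libraries, with only the third control library inside the target range (change 0.10, adjusted p 0.474, limma). DHX35, a component of catalytic spliceosomes, was near the detection minimum at 1.16, 1.18 and 1.43 FPKM in control and 1.19, 1.13 and 1.56 FPKM in target libraries. Both replicate 3 libraries were its highest, and the groups overlapped (adjusted p 0.943, limma). DDX23 and DDX46, helicases of spliceosome assembly and activation, and DDX20, the helicase of the survival motor neuron complex, had changes of 0.02, 0.05 and 0.07, and none was called.

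DDX42, a helicase found with the branch-site factor SF3b, varied more by library than by group. It was at 8.28, 11.4 and 8.36 FPKM in control and 8.49, 12.4 and 9.48 FPKM in target libraries, so both replicate 2 libraries were the highest of their group. The sum of its listed transcripts went the other way in those libraries: 5.09 FPKM in control replicate 2 and 4.88 FPKM in target replicate 2, against 10.7 to 13.2 FPKM in the others. The gene overlaps CCDC47 on the opposite strand. The change of 0.10 had a 95% interval of -0.29 to 0.50 (limma).

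The 16 nucleolar and ribosome biogenesis helicases process ribosomal RNA precursors and rearrange pre-ribosomes; most have a yeast counterpart needed for growth. None was called in either direction. Changes were positive for 12 and negative for 4, where 61.2% of all genes tested were positive. They ran from -0.08 to 0.12 with a median of 0.04. Groups did not overlap for DDX21, DDX27 and DDX56 (higher in target libraries) and DDX10 (lower). Among all genes tested, the shares were 16.6% higher and 7.18% lower.

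DDX21, a nucleolar helicase in ribosomal RNA transcription and processing, lies on chromosome 10 (chr10:70715884-70744829, plus strand, GRCh37). It was at 28.1, 28.3 and 27.7 FPKM in control and 29.99, 30.6 and 30.5 FPKM in target libraries. All target libraries were above all control libraries, by little. The change was 0.11 with a 95% interval of 0.03 to 0.20, an unadjusted p of 0.0187 and an adjusted p of 0.235 (limma). DDX50, the paralog that lies beside DDX21 on the same chromosome, was at 33.6, 30.8 and 26.4 FPKM in control and 31.5, 29.8 and 32.3 FPKM in target libraries, with control replicate 3 the lowest of all 6. Its change was 0.05 with all libraries (adjusted p 0.823, limma) and -0.04 without control replicate 3. The ratio of DDX50 to DDX21 was 1.08 ± 0.121 and 1.03 ± 0.0460 (SD, n = 3; exact permutation p = 0.500).

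DDX27, which takes part in large ribosomal subunit assembly, was at 8.94, 8.98 and 9.88 FPKM in control and 10.4, 10.0 and 10.1 FPKM in target libraries. DDX56, a nucleolar helicase of the same pathway, was at 9.44, 9.22 and 10.0 FPKM in control and 10.1, 11.1 and 10.3 FPKM in target libraries. Both had a change of 0.12, and both missed the threshold at adjusted p values near 0.348 (limma). DDX27 overlaps ZNFX1 on the opposite strand. DDX10, the counterpart of a yeast helicase of small subunit assembly, was at 1.203, 1.32 and 1.23 FPKM in control and 1.14, 1.12 and 1.19 FPKM in target libraries. It was the only member whose target libraries all lay below its control libraries, with a change of -0.07 (adjusted p 0.578, limma). All these levels were close to the minimum of 1 FPKM. The only listed transcript of the gene, DDX10-001, overlapped between groups. That transcript was at 2.52, 2.85 and 2.06 FPKM in control and 2.63, 1.83 and 2.30 FPKM in target libraries. DHX37, a DEAH-box enzyme of small subunit maturation, was at 5.31, 4.92 and 5.54 FPKM in control and 4.62, 5.07 and 5.06 FPKM in target libraries, which overlapped (change -0.08, adjusted p 0.578, limma).

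Of the 8 cytoplasmic helicases of translation and decay that were listed, 7 were tested, and DDX3Y was not among the genes analysed here. None was called, 6 changes were positive and 1 was negative, and the median was 0.05. Of all genes tested, 61.2% had a positive change, and 16.6% had non-overlapping groups with the target libraries higher. Groups did not overlap for DHX29, which helps the small ribosomal subunit pass structured leaders, for DHX34, a factor of nonsense-mediated decay, and for DHX57, whose role is little known. Their mean levels went from 6.41 to 6.97 FPKM, from 5.56 to 6.06 FPKM and from 4.26 to 4.54 FPKM, with adjusted p values of 0.451, 0.451 and 0.531 (limma). DHX36, which opens G-quadruplexes, went from 3.44 to 3.59 FPKM. DDX1, part of the tRNA ligase complex, had a mean of 29.2 FPKM in both groups and a change of 0.00 (adjusted p 0.995, limma).

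DDX3X, the most abundant member, showed the widest spread. It lies on chromosome X (chrX:41192601-41223725, plus strand, GRCh37) and was at 66.9, 67.4 and 35.5 FPKM in control and 66.1, 61.6 and 34.8 FPKM in target libraries. Both replicate 3 libraries were low, and the other 4 lay between 61.6 and 67.4 FPKM. The means were 56.6 ± 18.3 and 54.1 ± 16.9 FPKM (SD, n = 3), and the change of -0.06 had a 95% interval of -0.85 to 0.74 (adjusted p 0.950, limma). Leaving out 1 library turned the sign: the change was 0.09 without control replicate 1 or without control replicate 2 and 0.23 without target replicate 3, against -0.36 at the other end of the range. Of all 10675 genes tested, 10 had both replicate 3 libraries at least 1.5-fold below the other 4, as did 10 for replicate 1 and 10 for replicate 2. DDX3X was the only helicase gene among them. DDX6, which represses translation and promotes decapping, varied in another way: control replicate 1 (9.49 FPKM) and target replicate 3 (9.74 FPKM) were low, and the other 4 lay between 12.3 and 13.4 FPKM.

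The members placed with RNA sensing were DHX58, DDX60L and DHX9. DHX58 encodes LGP2, a cytosolic sensor of double-stranded RNA that modulates signalling by related receptors. It lies on chromosome 17 (chr17:40253422-40264751, minus strand, GRCh37) and was at 0.479, 0.341 and 0.519 FPKM in control and 0.855, 0.909 and 1.02 FPKM in target libraries. All target libraries were above all control libraries, yet only 1 of the 6 reached 1 FPKM. The means of 0.447 ± 0.0932 and 0.927 ± 0.0830 FPKM (SD, n = 3) gave a ratio of 2.08. DHX58 was outside the main test, and in a fit with no minimum limma gave a log2 change of 0.42 and an adjusted p of 0.0830.

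DDX60L is the paralog of DDX60, an interferon-induced helicase, and lies on chromosome 4 (chr4:169277886-169458937, minus strand, GRCh37). It was at 1.81, 1.73 and 1.74 FPKM in control and 2.05, 1.98 and 2.11 FPKM in target libraries. The groups did not overlap, and the change of 0.14 had an unadjusted p of 0.0313 and an adjusted p of 0.270 (limma). The gene overlaps PALLD on the opposite strand. DHX9, at 32.4, 36.3 and 34.1 FPKM in control and 36.9, 33.7 and 37.9 FPKM in target libraries, overlapped between groups (adjusted p 0.608, limma).

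Of the 4 genes left out by the rule, 2 were called as higher in target libraries. DDX58, which encodes the RNA sensor RIG-I, went from 1.47 ± 0.105 to 3.08 ± 0.185 FPKM (adjusted p 0.0124, limma), and DDX60 from 2.03 ± 0.0988 to 4.83 ± 0.244 FPKM (adjusted p 0.00254, limma), with n = 3 a group. DDX19A (1.99 to 4.74 FPKM, adjusted p 0.102) and DDX19B (4.40 to 5.01 FPKM, adjusted p 0.524), paralogs in mRNA export, were not called.

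**Figure D3:**
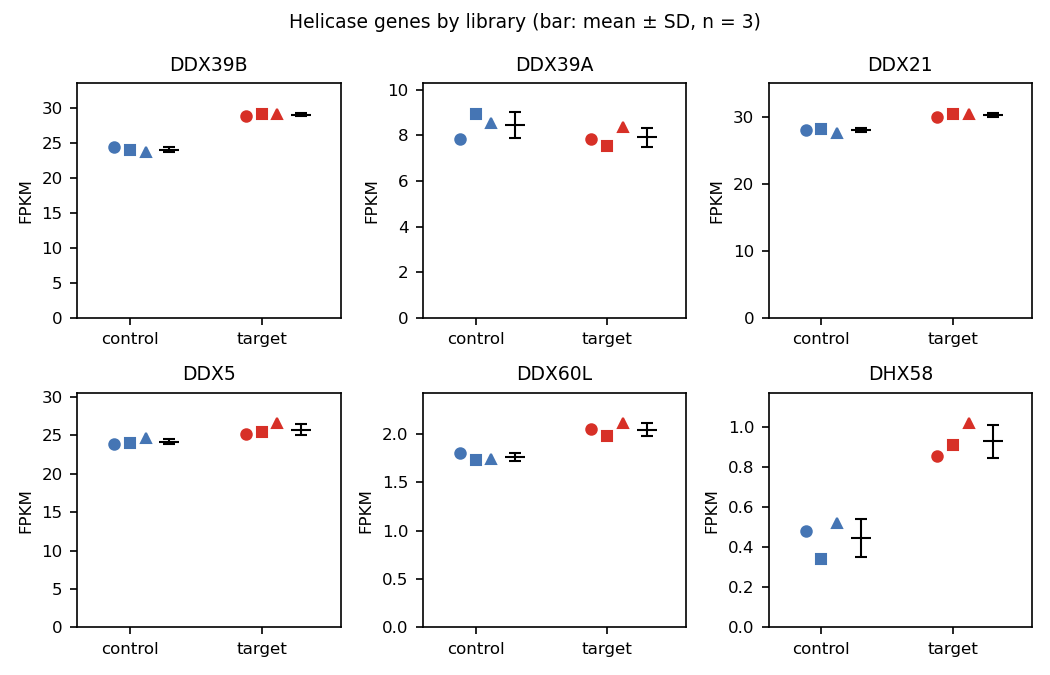
FPKM in each library for 6 helicase genes, with circles, squares and triangles for replicates 1, 2 and 3 in control (blue) and target (red) libraries and a black bar for the mean ± SD (n = 3); each axis starts at 0. Target libraries lie above control libraries in DDX39B, DDX21, DDX5, DDX60L and DHX58, and overlap with them in DDX39A.

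The remaining members gave no call. DDX28 and DHX30, which assemble the mitochondrial ribosome, had means of 4.77 and 9.72 FPKM in control and 4.65 and 9.99 FPKM in target libraries. DHX40, a DEAH-box protein of little known function, was at 22.1, 20.2 and 21.1 FPKM in control and 19.3, 20.0 and 21.4 FPKM in target libraries, an overlap with a change of -0.06 (adjusted p 0.631, limma). DDX11, a DNA helicase of sister chromatid cohesion, had means of 5.73 and 5.56 FPKM, which are uncertain because the genome holds near-identical copies of it. DHX32 had a mean of 13.6 FPKM in both groups. The germline helicases DDX4, DDX25, DDX43 and DDX53 were not among the genes analysed here. In all, 18 members overlapped another listed gene, 15 of them on the opposite strand and 3 on the same strand (DHX33, DDX46 and DDX47).

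Transcripts were listed separately, with their own FPKM. Gene FPKM equalled the sum of the listed transcripts, within 1% in all 6 libraries, for 1 of 46 genes (DDX28, with 1 transcript), so the scales of both tables are kept apart. Of the 125 transcripts of helicase genes, 87 reached the minimum and were tested among 20890. DHX29-201 was called as higher and 0 were called lower, where 0.287% of all tested transcripts were called. At an unadjusted p below 0.05 there were 7, where 7.40% of all tested transcripts reached that level. Groups did not overlap for 7 transcripts higher and 6 lower in target libraries, where 15.2% of all tested transcripts did not overlap. The leading transcript was the same in all 6 libraries for 19 genes, and 12 genes had 1 transcript. For 14 genes it varied within a group, and only for DHX29 did it differ between the groups with each group uniform.

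DHX29-001 was at 6.86, 6.51 and 5.78 FPKM in control and 2.35, 0.0519 and 1.91 FPKM in target libraries. DHX29-201 was listed at 0, 0 and 0.380 FPKM in control and stood at 4.21, 6.41 and 5.75 FPKM in target libraries. The control libraries thus held nearly all of the level under the first model and the target libraries most of it under the other, with no overlap for either transcript. The sum of both was 6.86, 6.51 and 6.16 FPKM in control and 6.56, 6.46 and 7.65 FPKM in target libraries, where the groups overlapped. The change of DHX29-201 was 2.52 with a standard error of 0.22 and an adjusted p of 0.0246 (limma), and that of DHX29-001 was -1.76 with an adjusted p of 0.492 (limma). DHX29-201 reached 1 FPKM only in the 3 target libraries. It thus entered the test through the group in which it was high, and its p-value does not allow for that selection. The call of DHX29-201 was lost with a pseudocount of 0.1 (adjusted p 0.167), of 0.01 (0.484), with the replicate block (0.337) and without any one of the 6 libraries (0.0592 to 0.116, limma).

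The models behind these entries are nearly the same molecule. In GENCODE v29 on GRCh38 they have 4502 and 4450 bases and differ by 54 of them in all: 48 at the start of DHX29-001, 1 at its end, 3 inside it at positions 4257 to 4259, and 1 in each at the substitution A1216G, counted from base 1 at the start of DHX29-001. The substitution falls on an exon border that the models place 6 bases apart. In DHX29-001, A is the first base of an exon (chr5:55285696-55285861, GRCh38). DHX29-201 reads G there, as the first of the last 6 bases of a longer preceding exon (chr5:55289264-55289428, GRCh38). The substitution lies in the coding part of both models. The GENCODE v29 models may not be those the authors used. The 61 bases around the substituted base, with that base in capitals, show how little separates the entries between which the level moved.

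DHX29-001: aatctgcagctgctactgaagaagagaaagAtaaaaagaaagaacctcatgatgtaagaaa
DHX29-201: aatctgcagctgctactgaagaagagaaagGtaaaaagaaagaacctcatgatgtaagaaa

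Single DDX3X transcripts varied by replicate number as well as by group. DDX3X-001 was at 102, 106 and 54.6 FPKM in control and 3.86, 3.69 and 47.6 FPKM in target libraries, with no overlap. DDX3X-201 was at 5.83, 2.26 and 0 FPKM in control and 99.9, 92.8 and 0 FPKM in target libraries. In replicates 1 and 2 the high entry was therefore DDX3X-001 in control and DDX3X-201 in target libraries, while both replicate 3 libraries had DDX3X-201 listed at 0. DDX3X-005 was at 1.57, 0.830 and 2.90 FPKM in control and 11.1, 10.9 and 1.98 FPKM in target libraries. The sum over listed transcripts was 93.0 ± 29 FPKM in control and 92.2 ± 35.7 FPKM in target libraries (SD, n = 3). DDX3X-001 had a change of -3.03 with an adjusted p of 0.620 (limma), and the other transcripts were not called either.

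DDX39B had 13 listed transcripts, and none was called. DDX39B-019 was at 15.9, 14.3 and 17.8 FPKM in control and 23.6, 22.4 and 21.6 FPKM in target libraries, with no overlap (change 0.47, adjusted p 0.318, limma). DDX39B-002 was at 8.33, 6.97 and 11.5 FPKM in control and 13.97, 13.8 and 18.0 FPKM in target libraries, also with no overlap (change 0.73, adjusted p 0.526, limma). The sum over all 13 was 62.5, 55.6 and 69.6 FPKM in control and 77.5, 83.8 and 80.0 FPKM in target libraries. It did not overlap either, and its change of 0.36 was not called (adjusted p 0.272, limma).

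Other transcripts are given beside the level of their gene, and none of them was called. DDX5-010 was at 8.06, 5.58 and 6.51 FPKM in control and 10.8, 16.3 and 17.1 FPKM in target libraries (change 1.01, adjusted p 0.349, limma), beside a leading DDX5-006 with means of 52.3 and 53.3 FPKM. DDX17-001 was at 78.9, 81.4 and 77.8 FPKM in control and 74.2, 69.3 and 75.7 FPKM in target libraries (change -0.12, adjusted p 0.700, limma), although gene DDX17 had a change of 0.04. DDX21-201 was at 0.151, 0.271 and 3.78 FPKM in control and 7.82, 9.66 and 2.23 FPKM in target libraries, so that the replicate 3 libraries overlapped (adjusted p 0.677, limma). The summed transcripts of DDX21 went from 29.8 ± 0.367 to 32.2 ± 0.379 FPKM (SD, n = 3), the same direction as the gene. For DDX27, control replicate 1 had its level under DDX27-001 (9.72 FPKM) with DDX27-007 at 0.0470 FPKM, while the other 5 libraries had DDX27-007 at 17.6 to 20.9 FPKM. Of 32 genes whose top pair of models both had a GENCODE v29 sequence, 5 pairs differed by under 100 bases: those of DDX54 (3), DDX50 (30), DHX29 (54), DDX27 (76) and DDX49 (82).

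**Figure D4:**
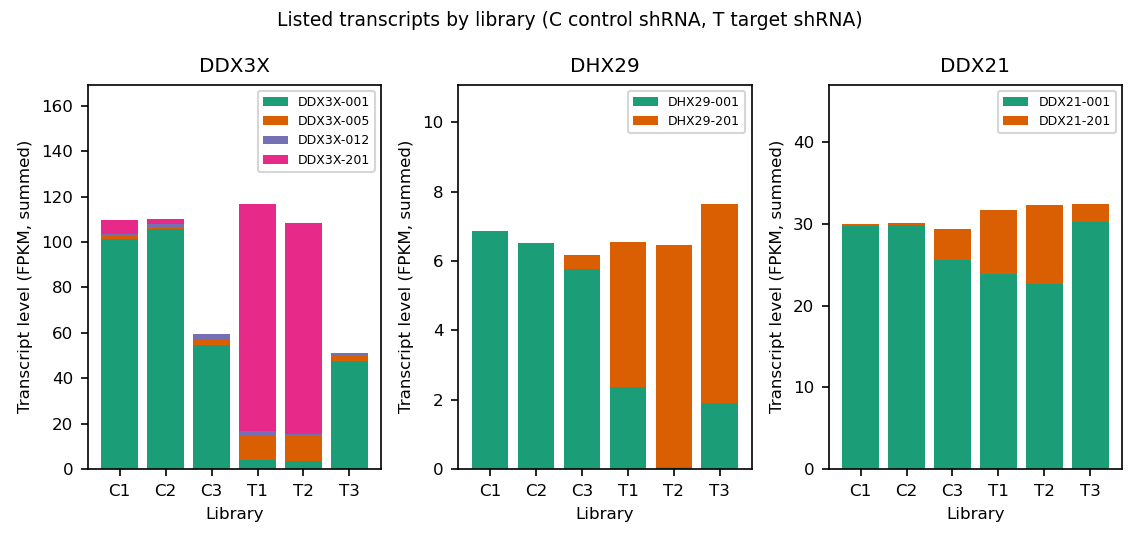
FPKM of the listed transcripts of DDX3X, DHX29 and DDX21, stacked by transcript for each library (C control, T target). DHX29 changes colour between the groups at a similar total, DDX3X does so in replicates 1 and 2 only, and DDX21-201 is largest in target replicates 1 and 2.

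Promoters of these genes were read from RefSeq (GRCh38.p14) as windows of 300 bases, 250 before and 50 after an annotated start. Windows were found for 41 of the 46 genes, 53 in all; DDX52, DHX33, DDX49, DDX18 and DHX58 had no match. 8 motifs were searched on both strands. CCGGAAG, the core bound by ETS factors, was in the windows of 21 of 41 helicase genes (51.2%), against 24.0% of 8302 tested genes with a window and 10.3% of all 35116 windows. The E-box CACGTG was in 9 (22.0%, against 13.0% and 7.26%), and the cAMP response element TGACGTCA in 4 (9.76%, against 4.11% and 1.85%). The CCAAT box was in 20 (48.8%, against 43.4% and 34.6%). GGGCGG, the GC box, was in 27 (65.9%, against 79.2% and 44.95%). AAGATGGCG, bound by YY1, was in 3 (7.32%, against 5.25% and 1.75%), and the palindromic NRF1 site in 2 (4.88%, against 2.82% and 1.24%). The core of the interferon-stimulated response element, in which copies of GAAA flank a gap of NN, was in 2 (4.88%, against 3.59% of tested genes and 3.57% of all windows). A gene with several windows counted once if any held the motif, and shares per gene and per window are not on the same footing. These are matches of letters and no evidence that a factor binds.

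The windows of the called gene DDX39B and of DDX21, the uncalled member of smallest p, are shown because they hold CCGGAAG, in capitals, 14 and 60 bases before the start. That of DDX39B is chr6:31541954-31542253 on the minus strand and the one shown for DDX21 is chr10:68955920-68956219 on the plus strand, both GRCh38.p14. DDX21 has a second window, chr10:68956397-68956696 on the plus strand, which holds no CCGGAAG, and neither do the windows of DDX39A. Members with a negative change held the motif too, among them DDX59 (-0.18) and DHX37 (-0.08). DDX60L, with a change of 0.14, did not hold it. Whether the motif goes with the change was not tested.

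DDX39B: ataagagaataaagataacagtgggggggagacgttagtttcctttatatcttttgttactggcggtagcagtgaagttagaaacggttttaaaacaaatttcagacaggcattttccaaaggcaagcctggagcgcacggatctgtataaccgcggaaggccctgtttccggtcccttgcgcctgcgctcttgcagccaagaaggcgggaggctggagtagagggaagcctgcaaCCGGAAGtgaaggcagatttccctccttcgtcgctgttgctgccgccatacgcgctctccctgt
DDX21: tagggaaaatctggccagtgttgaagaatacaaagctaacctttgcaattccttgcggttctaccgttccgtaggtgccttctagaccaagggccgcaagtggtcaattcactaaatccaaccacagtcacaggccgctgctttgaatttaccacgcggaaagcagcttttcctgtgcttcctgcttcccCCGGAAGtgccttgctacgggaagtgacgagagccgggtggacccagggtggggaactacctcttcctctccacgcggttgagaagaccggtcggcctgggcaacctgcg

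The windows with the interferon element core, in capitals, were those of DDX60L (chr4:168480443-168480742, minus strand, GRCh38.p14) and DHX15 (chr4:24584505-24584804, minus strand, GRCh38.p14). DDX60L holds the core at 80 and at 50 bases before the start, and DHX15 holds it once, 215 bases before the start. DDX60L had non-overlapping groups and a change of 0.14, whereas DHX15 had a change of 0.01 (adjusted p 0.920, limma), and neither was called.

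DDX60L: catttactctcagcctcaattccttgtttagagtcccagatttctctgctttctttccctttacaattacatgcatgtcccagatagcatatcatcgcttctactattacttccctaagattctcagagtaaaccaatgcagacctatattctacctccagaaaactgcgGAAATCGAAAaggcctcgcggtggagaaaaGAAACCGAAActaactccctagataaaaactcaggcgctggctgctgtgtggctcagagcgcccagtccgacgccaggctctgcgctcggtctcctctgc
DHX15: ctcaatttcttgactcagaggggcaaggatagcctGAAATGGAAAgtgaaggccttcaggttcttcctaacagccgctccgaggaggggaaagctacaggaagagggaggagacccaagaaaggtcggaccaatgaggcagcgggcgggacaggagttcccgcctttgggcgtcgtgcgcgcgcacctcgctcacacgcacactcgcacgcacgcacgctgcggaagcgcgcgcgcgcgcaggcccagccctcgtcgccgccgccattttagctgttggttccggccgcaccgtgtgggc

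Genes that work with these helicases gave no call. Of 92 tested genes in 7 partner lists, 0 were called higher and 0 lower by limma, with a median change of 0.05 against 0.03 for all genes tested, of which 0.749% were called. At an unadjusted p below 0.05 there were 17 partner genes (18.5%), near the 16.1% of all genes tested. They were 4 of 18 related helicases with other symbols, 5 of 23 G-patch proteins, 1 of 9 of the survival motor neuron complex, 1 of 13 of TREX and export, 2 of 12 of decapping, 1 of 6 of the exon junction complex and 3 of 11 of the exosome. THOC7, a TREX subunit, went from 26.8 ± 0.498 to 31.4 ± 1.25 FPKM (change 0.22, adjusted p 0.108, limma), and NXT1, part of the export receptor, from 9.94 to 11.3 FPKM (adjusted p 0.336). GPKOW, a G-patch partner of DHX16, went from 13.9 ± 0.427 to 16.0 ± 0.0541 FPKM (adjusted p 0.124, limma), and AGGF1, another G-patch protein, from 13.8 to 15.3 FPKM (adjusted p 0.225).

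EIF4A3, the DEAD-box core of the exon junction complex, went from 13.3 ± 0.1005 to 14.8 ± 0.609 FPKM (SD, n = 3; adjusted p 0.231, limma), and its partner RBM8A from 15.3 to 17.2 FPKM (adjusted p 0.278). HELZ2, an interferon-induced helicase, went from 3.78 to 4.37 FPKM (adjusted p 0.241). In the complex that holds DDX20, GEMIN7 went from 10.8 to 12.6 FPKM (adjusted p 0.182) and GEMIN8 from 4.30 to 3.96 FPKM (adjusted p 0.467). Among partners of DDX6, LSM14B went from 23.6 to 26.1 FPKM (adjusted p 0.210), and the decapping-associated NBDY, listed under the symbol LINC01420, from 12.3 to 13.9 FPKM (adjusted p 0.196).

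EXOSC2, a subunit of the RNA exosome, was at 9.40, 9.10 and 14.7 FPKM in control and 14.9, 16.0 and 16.0 FPKM in target libraries. Control replicate 3 lay close to the target libraries, and the change of 0.50 had an adjusted p of 0.255 (limma); without control replicate 3 the change was 0.70 with an adjusted p of 0.0221 (limma). EXOSC8, another subunit, went from 5.08 to 6.06 FPKM (adjusted p 0.197, limma), and MAGOHB, of the exon junction complex, from 2.61 to 3.21 FPKM (adjusted p 0.407, limma).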

How the data were processed

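RNA-seq of 6 MKN45 libraries was compared, 3 with each shRNA, grouped by sample title. Per the labels' protocols, RNA was extracted with Trizol and Illumina libraries were made. Tables of FPKM for genes and transcripts were deposited by the authors. The submitters' processing notes name hg19 and GRCh37. The aligner, the quantifier, its annotation and whether reads kept their strand: not given in the sources used here. Depth is unknown, so no counting error is given.

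Values were analysed as log2(FPKM + 1) with limma-trend (limma 3.58.1, R 4.3.3) on all features that reached 1 FPKM in 3 or more of the 6 libraries, with Benjamini-Hochberg adjustment over all of them and a threshold of 0.05. Tables and figures used Python 3.11.15, pandas 2.3.3 and matplotlib 3.10.9. The fit was also run on simulated data, and the outcome of that run is not given here. Ratios of paralogs were compared by exact two-sided permutation.

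Full values per library are given for members past the threshold and the 6 of smallest p in each direction. They are also given for the 4 highest and 3 lowest in level, paralog pairs and the members placed with RNA sensing. DDX42, DDX6 and DHX16 and the transcripts of DDX3X, DDX21 and DDX27 beyond this rule were chosen after their values were seen. The members, role groups and partner lists were chosen with earlier results of these data known. Transcripts and partner genes were added to the alternatives after seeing the data. Alternatives were other pseudocounts, filters, scalings and limma settings, transcript sums, a replicate block, and leaving out each library. The labels do not say whether replicate numbers pair the libraries. A further marker list is not reported here.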

Additional observations from a re-analysis of the deposited data

How the results depend on the processing

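Over 39 named results and 610 alternative values, 573 kept direction and side of the threshold, 21 were weaker, 1 was stronger (EXOSC2, above) and 15 reversed, all 15 in 6 genes. The cause of the reversals was not tested. All 21 weaker values were those of the only called results, DDX39B (12 weaker, 5 same) and DHX29-201 (9 weaker, 5 same). All other named results were uncalled from the start, so keeping their side of the threshold says little about how stable they are. The count of helicase genes called was 1, and it was 0 after quantile normalization, median rescaling, limma without the trend and the replicate block, and 0 to 0 with a library left out. The count of helicase transcripts called was 1, and it was 0 with a pseudocount of 0.1 or 0.01, with a mean of at least 5 FPKM, with the replicate block, and 0 to 0 with a library left out. The median change of 0.04 moved to 0.00777 after quantile normalization and 0.0101 after median rescaling, and ranged from 0.02 to 0.05 with a library left out.

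Of all genes, 80 were called: 52 with a mean of at least 5 FPKM, 10 with the replicate block and 23 to 42 with a library left out. Of all transcripts, 60 were called: 39 and 15 with pseudocounts of 0.1 and 0.01, 18 with a mean of at least 5 FPKM, 0 with the replicate block and 33 to 53 with a library left out. Libraries of the same number correlated at -0.013, 0.019 and 0.066 in their deviations. These correlations take all genes together, so they cannot exclude a pairing that acts on some genes. The labels name no pairing, so the block tests no known one.

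Reversed changes were those of DDX17 (-0.15 from summed transcripts or the summed locus), DDX56 (-0.35 for both sums), DHX40 (0.0212 for both), DHX35 (-0.0358 after quantile normalization, -0.00179 after median rescaling, -0.0640 to 0.0714 with a library left out), DDX50 (-0.0429 without control replicate 3, up to 0.125 with another library left out) and DDX3X (-0.36 to 0.23 with a library left out). With 3 libraries a group and unknown depth, small changes of low genes could not be resolved.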
